A study of Mus musculus with 4 samples.

Results

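Replication-dependent histone genes are the protein-coding genes whose symbols begin with Hist1h, Hist2h, Hist3h or Hist4 in the GENCODE vM21 basic annotation of the mouse build mm10. They were chosen by symbol alone and number 67 of 21827 protein-coding genes: 6 for the linker histone H1, 18 for H2A, 18 for H2B, 12 for H3 and 13 for H4. ATAC-seq, where a transposase inserts sequencing adapters into accessible DNA, gave the measure of open chromatin. The samples were dental mesenchymal cells of incisors from C57BL/6 mice, wild type, 4 weeks old and given no treatment. The samples were 4 sequencing lanes whose values were deposited under 1 shared name, so 1 library was described, with no replicate and no contrast between conditions. How many animals gave the cells is not stated in the labels.

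These genes supply the histones that package newly copied DNA, and they are transcribed mainly in S phase. Most lie in clusters, lack introns and end in a stem-loop in place of a poly(A) tail. The coactivator NPAT acts at histone promoters through factors that differ by histone type, among them NF-Y at CCAAT boxes, POU2F1 at the octamer of H2B promoters and HINFP at the site II element of H4 promoters. Many H2A and H2B genes stand back to back and share the stretch between their start sites.

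The library held 2297894 reads in 121574 regions, with a median of 7 reads in a region. Intervals on reads are exact 95% Poisson intervals and intervals on shares exact 95% binomial intervals; both cover counting error alone, and counts that were not freed of duplicates would make them too narrow. Of 14 dental mesenchyme markers, 13 had a promoter region, with 19 to 164 reads; Msx1 had 164, Twist1 157 and Prrx2 19, and Barx1 had none. Of 18 markers of blood, endothelial, epithelial and germ cells, 7 had one, with 10 to 113 reads: Dazl, a germ cell gene, had 113 reads, the ameloblast gene Ambn 112 and the epithelial gene Cdh1 10. No promoter region was listed for Ptprc, Laptm5, Tyrobp, Adgre1, Pecam1, Amelx, Hba-a1, Hbb-bs, Ddx4, Tnp1 or Prm1. Over all protein-coding genes, 64.6% had a promoter region. The part of other cells in the histone values was not tested.

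The stretches between start sites of 4 divergent H2A and H2B pairs are shown first, because 1 region covered both start sites of each of them. The same held for Hist1h2ah with Hist1h2bk and Hist1h2ag with Hist1h2bj, whose stretches no RefSeq promoter entry holds whole, so they are not printed. The sequences are RefSeq's, build mm10, plus strand, 5′ to 3′. Capitals mark exact matches, on either strand, to CCAAT (the NF-Y box), TATAAA (the TATA box), ATTTGCAT (the octamer), AAACACA (the H1 box) or GGTCCG (the core of the H4 site II element). The stretches lie at chr13:23683949-23684198 for Hist1h2ac and Hist1h2bc, at chr13:23571221-23571395 for Hist1h2ae and Hist1h2bg, at chr13:21716144-21716421 for Hist1h2bl and Hist1h2ai, and at chr13:23574197-23574380 for Hist1h2bf and Hist1h2ad.
Hist1h2ac/Hist1h2bc: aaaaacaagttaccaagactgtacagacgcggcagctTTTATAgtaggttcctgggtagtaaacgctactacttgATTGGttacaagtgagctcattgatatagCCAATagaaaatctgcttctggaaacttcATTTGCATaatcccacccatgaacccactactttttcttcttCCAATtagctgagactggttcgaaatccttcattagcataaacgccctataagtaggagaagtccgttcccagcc
Hist1h2ae/Hist1h2bg: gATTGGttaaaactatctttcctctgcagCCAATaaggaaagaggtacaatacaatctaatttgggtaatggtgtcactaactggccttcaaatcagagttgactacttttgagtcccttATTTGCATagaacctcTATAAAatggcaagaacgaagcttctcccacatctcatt
Hist1h2bl/Hist1h2ai: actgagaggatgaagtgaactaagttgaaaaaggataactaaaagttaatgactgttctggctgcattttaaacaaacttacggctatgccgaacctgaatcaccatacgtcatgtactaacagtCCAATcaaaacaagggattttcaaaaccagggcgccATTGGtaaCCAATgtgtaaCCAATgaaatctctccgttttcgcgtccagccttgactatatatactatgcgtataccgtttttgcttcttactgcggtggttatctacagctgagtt
Hist1h2bf/Hist1h2ad: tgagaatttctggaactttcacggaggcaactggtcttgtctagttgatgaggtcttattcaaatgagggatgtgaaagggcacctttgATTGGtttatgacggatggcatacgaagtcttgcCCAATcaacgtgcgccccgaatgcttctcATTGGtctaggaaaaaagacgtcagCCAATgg

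The next sequences are the 200 bases before the GENCODE start sites of 2 H4, 2 H3 and 2 H1 genes. Hist1h4h had the most reads of all members at its start site and Hist4h4 is the H4 gene outside the clusters. Hist1h3e and Hist1h3d had the most and the fewest reads in the region over the start site among H3 genes, and Hist1h1c and Hist1h1a were the H1 genes with a promoter region. They are RefSeq's, build mm10, each on the gene's own strand, with capitals as above. Their positions are chr13:23530850-23531049 (plus strand), chr6:136804416-136804615 (minus), chr13:23562370-23562569 (minus), chr13:23575563-23575762 (plus), chr13:23738608-23738807 (plus) and chr13:23763466-23763665 (plus), in the order of the lines.
Hist1h4h: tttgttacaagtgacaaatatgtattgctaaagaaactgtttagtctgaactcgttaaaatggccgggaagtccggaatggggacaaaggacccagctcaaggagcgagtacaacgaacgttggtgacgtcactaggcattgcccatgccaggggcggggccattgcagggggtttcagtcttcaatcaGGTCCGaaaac
Hist4h4: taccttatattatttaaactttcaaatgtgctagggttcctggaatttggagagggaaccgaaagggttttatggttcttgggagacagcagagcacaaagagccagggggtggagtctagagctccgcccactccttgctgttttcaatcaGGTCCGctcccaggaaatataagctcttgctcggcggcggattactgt
Hist1h3e: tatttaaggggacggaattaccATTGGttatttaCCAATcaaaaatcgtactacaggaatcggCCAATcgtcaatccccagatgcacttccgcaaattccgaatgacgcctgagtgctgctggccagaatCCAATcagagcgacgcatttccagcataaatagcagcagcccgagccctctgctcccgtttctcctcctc
Hist1h3d: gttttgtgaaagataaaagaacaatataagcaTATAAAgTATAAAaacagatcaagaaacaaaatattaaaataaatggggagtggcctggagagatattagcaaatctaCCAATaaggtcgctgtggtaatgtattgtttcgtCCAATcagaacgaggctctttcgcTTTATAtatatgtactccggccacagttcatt
Hist1h1c: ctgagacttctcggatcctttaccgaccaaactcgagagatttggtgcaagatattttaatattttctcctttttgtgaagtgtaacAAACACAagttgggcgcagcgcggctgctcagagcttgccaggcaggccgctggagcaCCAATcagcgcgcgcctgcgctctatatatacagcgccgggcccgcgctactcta
Hist1h1a: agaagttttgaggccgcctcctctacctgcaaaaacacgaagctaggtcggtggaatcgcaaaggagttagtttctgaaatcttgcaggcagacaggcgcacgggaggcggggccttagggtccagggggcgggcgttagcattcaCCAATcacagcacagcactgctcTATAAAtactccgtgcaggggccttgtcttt

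A promoter region, one that overlapped 1 kb either side of a start site, was listed for 39 of the 67 histone genes (58.2%, 45.5 to 70.2), against 64.6% of all protein-coding genes. A start site itself lay inside a region for 38 of 67 histone genes (56.7%, 44.0 to 68.8), against 58.5% of all genes. Any annotated start site of a gene counted, and of several such regions the one with the most reads was kept. This rule favours genes with several start sites. Both member shares lay near those of all genes. Promoter reads exceeded 67, the median of genes with a promoter region, for 28 of 67 histone genes (41.8%, 29.8 to 54.5), against 32.2% of all genes. This count depended on how reads were credited to neighbours. It was 20 with reads shared equally among the genes of a region and 24 with region midpoints in the window. With windows of 500 bases it was 23, and with windows of 2 kb it was 33. The shares of all genes under these settings are not given here. With the 28 genes without a promoter region set to 0 reads, the median histone gene had 31 reads. Among the 39 genes that had a region, promoter reads ran from 9 to 186 with a median of 100 (quartiles 61.5 and 120.5), against a median of 67 (30 and 126) over all genes with one.

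The promoters comprised 55 distinct regions with 2593 reads (2494 to 2695), which was 0.113% (0.109 to 0.117) of all reads in regions. The 32 regions that held a member's start site carried 2308 of these reads, and the other 23 carried 285. Members lie close together, so a 1 kb window often took in a neighbour's region. The region that held the start site is therefore given below for each type. Over the 38 histone genes with such a region it had a median of 87 reads and 609.5 bases, against 66 reads and 623 bases for all genes. A region over several start sites entered once for each gene, also among all genes. The 6 regions over 2 member start sites had a median of 113 reads, and the 26 over 1 start site had 60. Per kilobase of region the medians were 132.3 reads for histone genes and 103.3 reads for all genes.

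**Figure D1:**
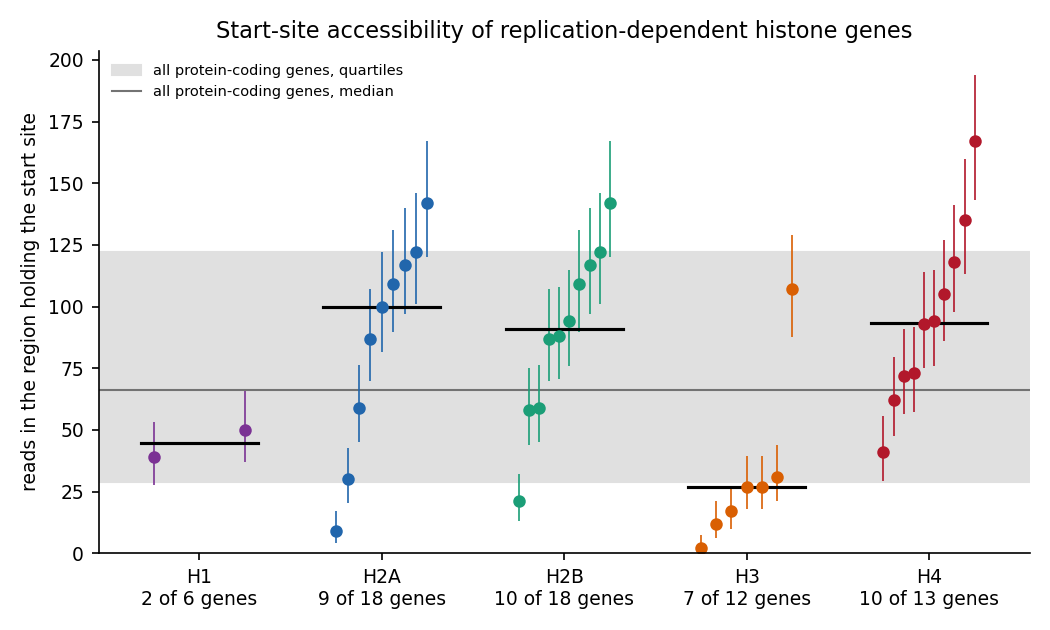
Reads in the region that held the start site of each histone gene, by type, with the number of genes that had such a region under each type. Points are genes with exact 95% Poisson intervals, black bars are medians over the points, and the grey band and line are the quartiles (29 and 122) and median (66) of all protein-coding genes; a region over an H2A and an H2B start site appears under both types. All H3 genes but Hist1h3e sit at 31 reads or fewer.

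H4, which pairs with H3 in the nucleosome core, had the highest median of reads per kilobase among the 5 types. Its 10 genes with a start-site region had 41 to 167 reads, a median of 93.5 and a median of 152.8 reads per kilobase. Hist1h4h had 167 reads (143 to 194) at chr13:23530888-23531832, Hist1h4a 135 (113 to 160), Hist1h4c 118 (97.7 to 141), Hist4h4 105 (85.9 to 127) and Hist1h4d 94 (76.0 to 115). Hist1h4i had 93 reads, Hist1h4k 73, Hist1h4j 72, Hist1h4f 62 and Hist1h4b 41. Per kilobase the order changed: Hist1h4i had 225 reads, Hist1h4d 221, Hist1h4a 196, Hist1h4h 177, Hist1h4c 156, Hist1h4f 149, Hist1h4b 131, Hist1h4k 122, Hist4h4 117 and Hist1h4j 88.7. In reads, the intervals of neighbours in the order overlapped, and those of Hist1h4h and Hist1h4b, from 29.4 to 55.6, did not. The region of Hist1h4h covered 100% of its 470-base transcript, and over the 10 H4 genes the covered share had a median of 56.8% (20.7 to 100).

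H3 had the lowest median of reads at its start sites among the 5 types. The 7 start-site regions had a median of 27 reads, a median width of 278 bases and a median of 76.92 reads per kilobase. Hist1h3e stood apart with 107 reads (87.7 to 129) in 673 bases at chr13:23561972-23562644. Hist1h3g had 31 reads, Hist1h3a and Hist1h3b had 27 each, Hist1h3h had 17, Hist1h3c had 12 and Hist1h3d had 2 (0.242 to 7.22), in a region of 58 bases. Hist1h3d had another 9 reads in an abutting region, and in such regions Hist1h3a had 10, Hist1h3h had 4 and Hist1h3c had 3. The interval of Hist1h3e overlapped none of the other H3 intervals, the highest of which ended at 44.0 for Hist1h3g.

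Reads of neighbours raised the 1 kb values of several H3 genes. Hist1h3a had 172 reads in its window, of which 135 lay in the region over the start site of Hist1h4a. Hist1h3c had 103, of which 88 lay in the region over the start site of Hist1h2bb. The start site of Hist1h3f lay in no region; its window held 120 reads, with 58 over the start site of Hist1h2bh and 57 in a region centred 517 bases downstream of its own. Over the 8 H3 genes with a promoter region the median within the windows was 80 reads, against 27 over the 7 start-site regions. With the other 4 genes at 0 the window median over all 12 was 27 reads, and 4 of the 12 exceeded 67 reads, against 32.2% of all genes.

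H2A and H2B form the dimers that flank the H3 and H4 tetramer, and their start-site regions had like medians. H2A had 100 reads over 9 genes (9 to 142) and H2B 91 reads over 10 genes (21 to 142); per kilobase the medians were 132.3 and 132.7 reads. These types share 6 regions, so the values are not independent. Of genes outside shared regions, Hist3h2a had 100 reads (81.4 to 122), Hist1h2bm 94 (76.0 to 115), Hist1h2bb 88, Hist1h2bh 58, Hist1h2ab 30, Hist3h2ba 21 and Hist1h2af 9 (4.12 to 17.1). The region of Hist3h2a also lay in the promoter window of Trim17.

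H1 binds the linker DNA between nucleosomes. Hist1h1a had 50 reads (37.1 to 65.9) at its start site and Hist1h1c had 39 (27.7 to 53.3). Hist1h1c also had 81 reads (64.3 to 101) in a region centred 997 bases downstream of the start, more than at the start itself. Its transcript is 1560 bases long, so the larger region overlies it. No promoter region was listed for Hist1h1b, Hist1h1d, Hist1h1e or the testis gene Hist1h1t.

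The histone genes formed 13 divergent pairs with start sites within 1 kb: 12 of H2A with H2B, 176 to 306 bases apart, and Hist1h2bh with Hist1h3f, 660 bases apart. A single region covered both start sites in 6 of the 13, all H2A with H2B, against 635 of the 761 divergent pairs of other genes (83.4%). In the other 6 H2A and H2B pairs no promoter region was listed for either gene. All of these but Hist1h2ba with Hist1h2aa lay in the stretches over 50 kb without any listed region that are described below. Every H2A and H2B pair with a listed promoter region thus had 1 region over both start sites. For Hist1h2bh with Hist1h3f, a region lay over the start site of Hist1h2bh and none over that of Hist1h3f.

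The region over Hist1h2ac and Hist1h2bc had 142 reads (120 to 167), that over Hist1h2ah and Hist1h2bk 122 (101 to 146), that over Hist1h2ag and Hist1h2bj 117 (96.8 to 140), and that over Hist1h2ae and Hist1h2bg 109 (89.5 to 131). The region over Hist1h2bl and Hist1h2ai had 87 reads (69.7 to 107), and that over Hist1h2bf and Hist1h2ad had 59 (44.9 to 76.1). Neighbours in this order had overlapping intervals, and the interval of the last pair lay below those of the first 4. The median of the 6 was 113 reads, against 104 (quartiles 58 and 168) for pairs of other genes under 1 region. The 26 regions that held 1 member start site had a median of 60 reads.

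**Figure D2:**
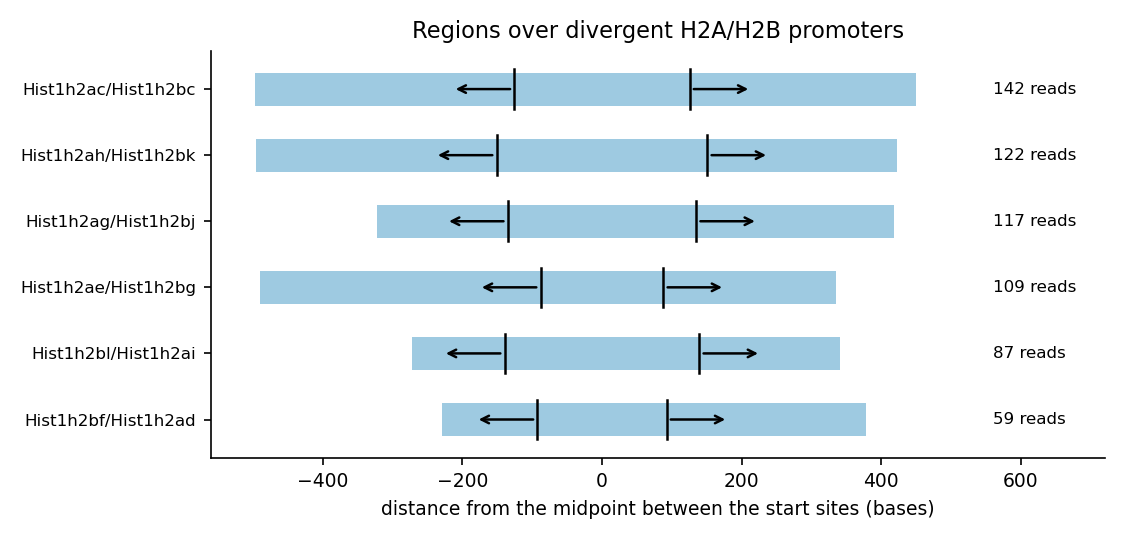
Extent of the region (blue bar) over each divergent H2A and H2B pair, in bases from the midpoint between the start sites; black lines mark the start sites and arrows the direction of transcription. Every region reaches past both start sites, by 132 to 401 bases on the left and by 200 to 323 bases on the right, and its reads are given beside it.

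The shared regions reached into both genes. The centres of the 6 regions lay between -77.5 (left) and 73.5 (right) bases from the midpoint between the start sites. The widest, over Hist1h2ac and Hist1h2bc, was 946 bases, and the narrowest, over Hist1h2bf and Hist1h2ad, was 607 bases. The printed stretch of Hist1h2bf and Hist1h2ad held 4 CCAAT boxes and no octamer or TATA box, while that of Hist1h2ac and Hist1h2bc held 3 CCAAT boxes, 1 octamer and 1 TATA box. That of Hist1h2ae and Hist1h2bg held 2 CCAAT boxes, 1 octamer and 1 TATA box, and that of Hist1h2bl and Hist1h2ai held 4 CCAAT boxes alone. Over the 12 H2A and H2B pairs, the stretches had a pairwise identity of 39.1% to 88.0% with a median of 50.7%.

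By position, the genes fall into 5 groups. A Hist1 block at chr13:21715763-22043676 (328 kb) holds 23 genes, of which 11 had a promoter region. A second Hist1 block at chr13:23531050-23934851 (404 kb) holds 31 genes, of which 25 had one. None of the 10 Hist2 genes at chr3:96219865-96270132 had one. Both Hist3 genes on chromosome 11 did (Hist3h2a and Hist3h2ba, with 100 and 24 promoter reads), and so did Hist4h4 on chromosome 6. With genes lacking a region at 0 reads, the medians were 0 in the 23-gene block, 77 in the 31-gene block and 0 in Hist2.

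The differences between the blocks came with long stretches in which the table listed no region. Of the 28 genes without a promoter region, 24 lay in 3 such stretches over 50 kb. The stretch at chr13:21750866-21855322 (104 kb) held Hist1h2ak, Hist1h2bn, Hist1h1b, Hist1h3i, Hist1h2an, Hist1h2bp, Hist1h2bq, Hist1h2ao, Hist1h4m, Hist1h4n, Hist1h2ap and Hist1h2br. That at chr13:23598246-23683576 (85.3 kb) held Hist1h2be and Hist1h1e. That at chr3:96182752-96414451 (232 kb) held Hist2h2ab, Hist2h2ac, Hist2h2be, Hist2h3c2, Hist2h2aa2, Hist2h2aa1, Hist2h3c1, Hist2h4, Hist2h3b and Hist2h2bb, together with Bola1 and Fcgr1. A listed region is needed for a value, so these stretches are not a measured absence of accessibility.

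Outside these stretches 39 of 43 histone genes (90.7%) had a promoter region, a share that the choice of the stretches raises by construction. The 4 without were Hist1h1d, Hist1h1t, Hist1h2ba and Hist1h2aa; the last 3 are testis histone genes. Over the genome, 9978 stretches over 50 kb held no region, 89 of them with 10 or more protein-coding genes, and 5003 of the 7725 genes without a promoter region lay in such stretches. Of all 21827 protein-coding genes, 14102 (64.6%) had a promoter region. Leaving out the 5003 would raise that share too, so 90.7% and 64.6% are not like shares.

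**Figure D3:**
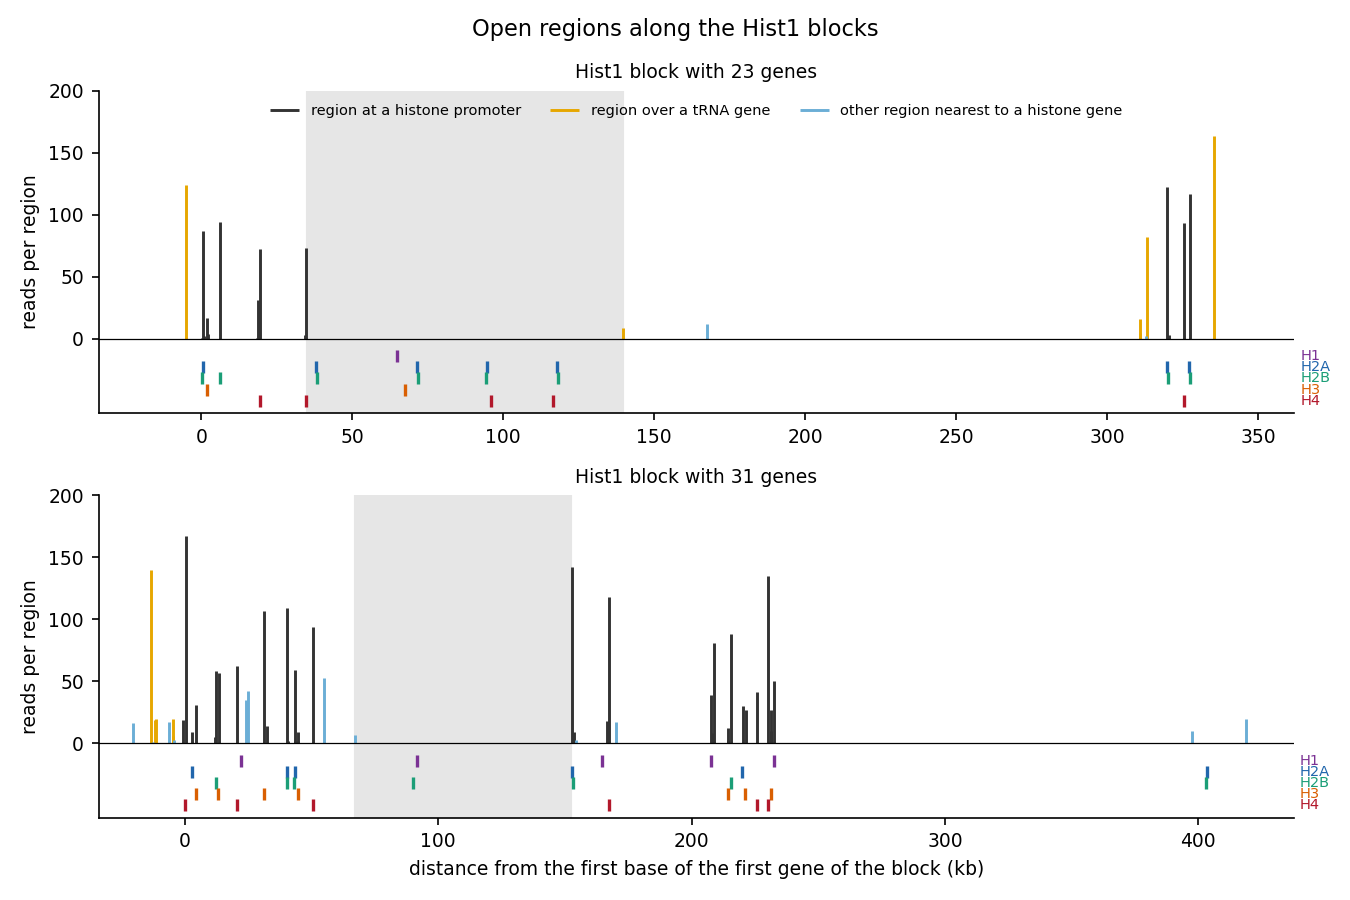
Reads per region (vertical lines) along the 2 Hist1 blocks, against the distance in kb from the first base of the first gene, coloured as a histone promoter, a region over a tRNA gene or another region nearest to a histone gene. Ticks below mark start sites by histone type, and grey bands are stretches over 50 kb in which no region was listed (104 kb above, 85.3 kb below). The tallest lines are the 163-read tRNA-Ser region beyond the end of the upper block and the 167-read region of Hist1h4h in the lower one.

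Start sites in RefSeq placed 2 of the genes without a promoter region under listed regions. RefSeq gave 63 start sites for 62 of the 67 genes, a median of 16 bases from the GENCODE ones; Hist1h3a, Hist1h3f, Hist1h2bc, Hist2h2be and Hist2h4 were not in that table. The RefSeq start of Hist1h1d lies 1770 bases downstream of the GENCODE one, inside chr13:23554966-23555347 with 35 reads (24.4 to 48.7). A second RefSeq start of Hist1h2be lies inside chr13:23585622-23586101 with 53 reads (39.7 to 69.3). No other gene changed in this respect.

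Sequence shared between histone genes bears on where reads can be placed. The share of 75-base words, the read length, that occur once in the genome had a median of 100% in the 500 bases before the start sites and of 59.8% in the 500 bases after them. After the start it was 47.6% for H3, 49.7% for H2A, 57.7% for H2B, 68.8% for H4 and 100% for H1. In start-site regions the share had a median of 77.9% (49.6 to 100) for histone genes, against 100% for all genes, of which 1.04% were under 80%. The region over Hist1h2ah and Hist1h2bk had 49.6% and that over Hist1h2ac and Hist1h2bc 56.2%. The sources used here do not say how reads that match several places were treated, and the part of such reads in these values was not tested.

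**Figure D4:**
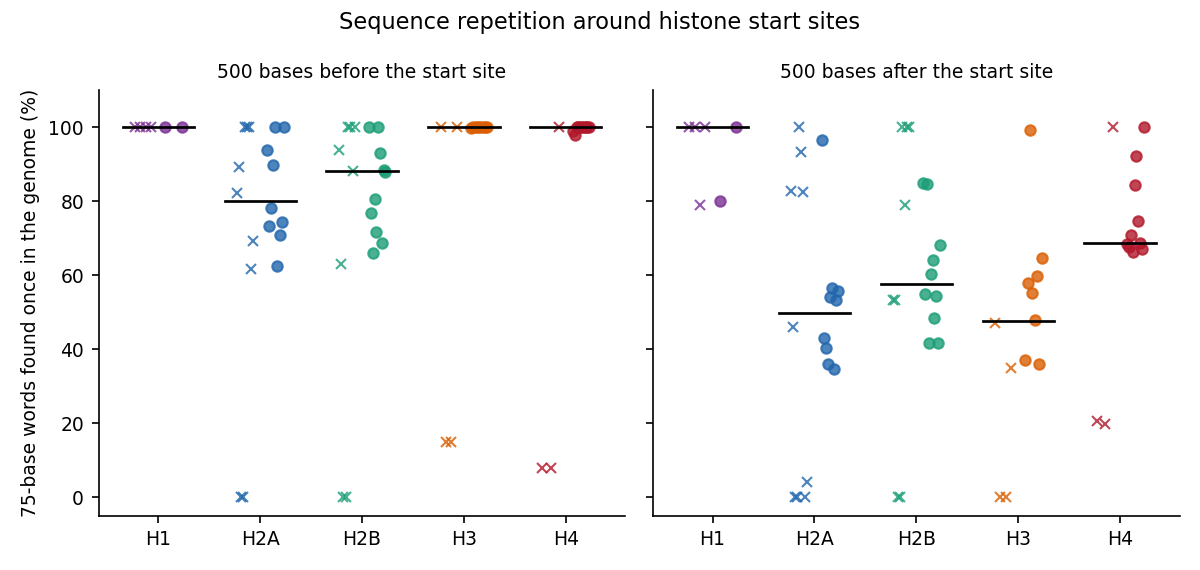
Share of 75-base words found once in the genome in the 500 bases before (left) and after (right) each histone start site, by type. Circles are genes with a promoter region, crosses genes without one and black bars the medians over all genes of the type; H3 has medians of 100% before and 47.6% after.

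The stretches without regions held unique sequence too. In the 1 kb windows of the 12 genes of the 104 kb stretch, the share of words found once ran from 0% to 100%, and 4 genes had at least 80%. In the 85.3 kb stretch both genes had at least 80%, and in the 232 kb stretch 5 of the 10 histone genes did.

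Promoter sequence differed by type. From 250 bases before to 50 after the start site, on both strands, a CCAAT box stood in 83.6% of histone promoters, against 38.9% of all protein-coding promoters. It was in 18 of 18 H2A, 18 of 18 H2B, 11 of 12 H3, 5 of 6 H1 and 4 of 13 H4 promoters. A TATA box stood in 55.2% of histone promoters, against 12.5% of all. The octamer stood in 22.4%, against 1.58% of all, with matches in 8 of 18 H2B and 7 of 18 H2A promoters and in no other type. On the coding strand it stood in 8 H2B promoters and in 0 H2A promoters. Overlapping windows of divergent pairs can count the same octamer for both genes. Hist1h2ah/Hist1h2bk, Hist1h2ae/Hist1h2bg, Hist1h2ac/Hist1h2bc, Hist1h2ba/Hist1h2aa and Hist2h2ac/Hist2h2be each held 1 octamer between their start sites.

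The core of the H4 site II element stood in 12 of 13 H4 promoters, against 10.1% of all promoters, 5.56% of H2B promoters and 16.7% of H3 promoters. All 12 matches were on the coding strand, with the first base 80 to 11 bases before the start site (positions -80 to -11, median -49). Hist1h4a held no match and had 135 reads, the second most among H4 genes. In Hist4h4 the match began at position -48 and in Hist1h4h at -11. The H1 box stood in 4 of 6 H1 promoters, against 6.35% of all. In Hist1h1c it began at -113, and in Hist1h1b, Hist1h1e and Hist1h1t between -117 and -115. Hist1h1d was scanned, for this and the other motifs, at its GENCODE start, 1770 bases upstream of its RefSeq start. The sequence at that RefSeq start was not scanned. A match is a description of the letters and not evidence of binding.

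**Figure D5:**
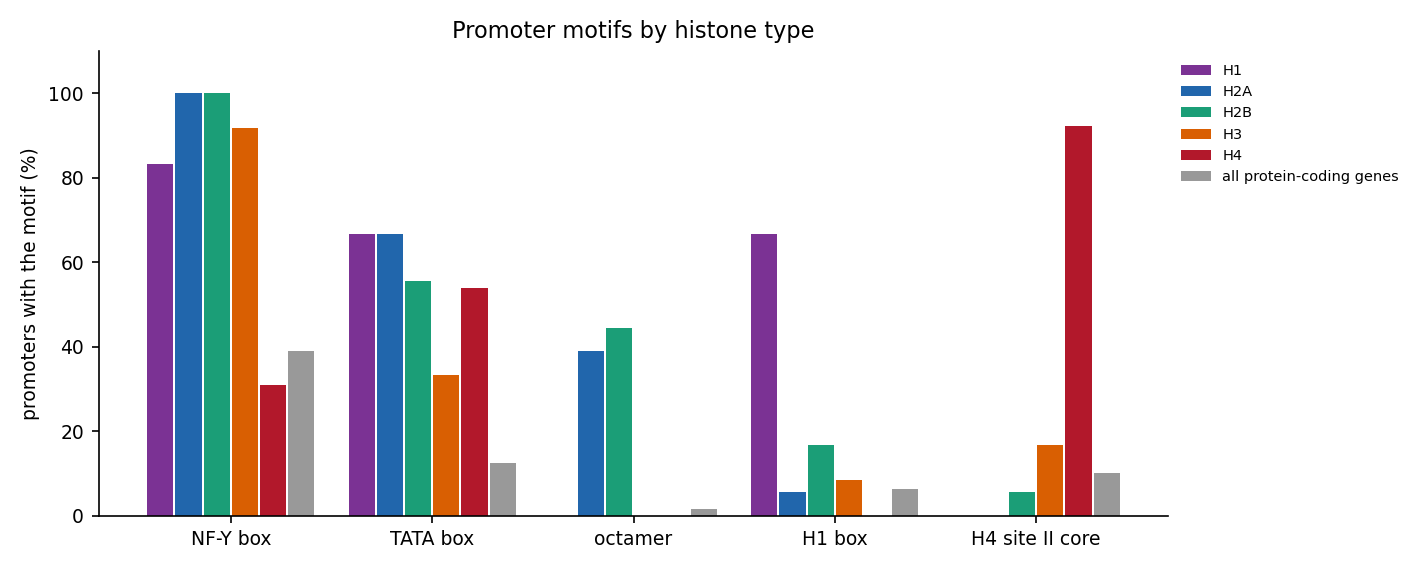
Share of promoters (250 bases before to 50 after the start site, both strands) with an exact match to each motif, for the 5 histone types and, in grey, all 21827 protein-coding genes. The NF-Y box is the CCAAT box. The H4 site II core is in 92.3% of H4 promoters, and the octamer is seen in H2A (38.9%) and H2B (44.4%) alone among histone types. On the coding strand the octamer is seen in H2B alone.

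Histone promoters had a median GC content of 45.33%, against 55.67% for all promoters. By type it ran from 41.83% for H3 to 51.17% for H1. CpG pairs per 100 bases had a median of 3.667 for histone promoters and 4.0 for all promoters. Histone genes with a promoter region had a median GC content of 44.67% and those without 46.33%.

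Away from promoters, 25 regions lay nearest to a histone start site, with 842 reads (786.1 to 900.8). Of these, 11 overlapped a tRNA gene (44.0%, 24.4 to 65.1), against 0.117% of the 96530 regions away from promoters in the whole table. The 11 carried 604 reads (556.8 to 654.1) over 12 tRNA genes, and the other 14 carried 238 reads. The largest lay at chr13:22050656-22051435 over a tRNA-Ser gene, 7.83 kb from the start site of Hist1h2bj, with 163 reads (139 to 190). That at chr13:23517001-23518233, over tRNA-Gly, tRNA-Met and tRNA-Ser genes 13.4 kb from Hist1h4h, had 140 reads (118 to 165). That at chr13:21710027-21711238, over tRNA-Gly and tRNA-Met genes 5.51 kb from Hist1h2bl, had 124 reads (103 to 148).

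These 3 regions had more reads than 113, the median of the shared histone promoters, but the median over all 11 tRNA regions was 20 reads and the lowest 5. Per kilobase the 3 had 209, 114 and 102 reads, and the 6 shared promoters 97.2 to 158. Within 50 kb of the 23-gene block, 11 of 34 tRNA genes lay under a region, and within 50 kb of the 31-gene block 8 of 14 did, against 171 of 403 (42.4%) in the genome. Of the regions over no tRNA gene, the one with the most reads had 53 and holds the second RefSeq start of Hist1h2be.

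At the low end, 18 of the 55 promoter regions had fewer than 10 reads. The median over all 121574 regions was 7 reads, so such counts are common among all regions. Regions beside Hist3h2a and beside Hist1h2bf and Hist1h2ad had 0 reads, for which the interval reaches 3.69. Regions beside Hist1h2bl and Hist1h2ai and beside Hist1h4j had 1 read each. Most such regions abut a larger one that holds a start site.

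The other genes of the pathway were described from lists chosen by function. Of all protein-coding genes, 64.6% had a promoter region and 32.2% had more than 67 promoter reads, the median of genes with one. All 22 factors that act in the expression and processing of histone RNA had a promoter region, with a median of 143.5 reads, and 20 of the 22 had more than 67 reads. Nfya, which encodes a subunit of NF-Y, had 579 reads (533 to 628), Pou2f1 had 359 (323 to 398) and Hinfp 31 (21.1 to 44.0). Npat had 159 reads, Casp8ap2, which encodes a factor of histone locus bodies, 188 and Slbp, which encodes the stem-loop binding protein, 161. Of 22 S phase genes, 21 had a promoter region, with a median over the list of 76 reads, and 12 of the 22 had more than 67 reads, against the same shares of all genes (64.6% and 32.2%). Mcm4 had 254 reads and Prim1 14, and no promoter region was listed for Rrm2.

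Replication-independent histone genes, whose products enter chromatin outside S phase, had a promoter region in 10 of 14 annotated cases. Their median with the others at 0 was 53.5 reads, and 6 of 14 had more than 67 reads, against 64.6% of all genes with a promoter region and 32.2% above 67 reads. H2afv had 262 reads (231 to 296), H2afz 221 (193 to 252) and H2afy 31 (21.1 to 44.0). None was listed for H2afx, H2afb1, H1foo or H1fnt. No test compared the lists, and with 1 library none of these values has an error beyond counting.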

How the data were processed

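ATAC-seq of wild-type incisor dental mesenchyme was described from tables that give 1 value for 4 lanes. Per the labels' protocols, reads of 75 bases in pairs were aligned to mm10 with BWA-MEM; MACS2 called the peaks and HOMER annotated them. STAR 2.6.1d and Partek appear, with no role, in the submitters' processing notes. The shift of reads for the transposase, removal of duplicates and the treatment of reads with several placements are not given in the sources used here. The authors deposited CPM values per region with 1 read added; 99.9% were whole multiples of 0.0484 CPM (tolerance 0.01, 84 exceptions), and subtracting 1 from the multiple gave the reads. The authors deposited expected counts for 16382 of the regions, which differed from the recovered reads by at most 0.0016. The table holds 1 value column of a sample not given here, which was not used.

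A region counted for a gene when it overlapped 1 kb either side of any start site in GENCODE vM21 basic; a gene without a region was taken as 0 reads where stated. Regions outside these windows went to the gene with the nearest start site. Clusters are runs of members with gaps under 500 kb. Words of 75 bases were counted on both strands of mm10. RefSeq promoters (build GRCm38.p6, which is mm10) gave the printed sequences. The word count and the overlap routine were tested on simulated data. Python 3.11.15, numpy 2.4.6, pandas 2.3.3, scipy 1.17.1, Biopython 1.88, numba 0.67.0 and matplotlib 3.10.9 were used.

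The members and lists were chosen with earlier results of these data known. Named genes followed a rule: full values for the 12 member regions with the most reads and those with the fewest, every member without a region by name, and the 2 most and the 1 least accessible genes of each list; Npat, Casp8ap2 and Slbp were added after their values were seen, and 1 gene that the rule takes is not reported here. The plan assumed a value per lane, which the tables do not hold, so leaving out a lane was not run, and nothing was tested between groups.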

Additional observations from a re-analysis of the deposited data

How the results depend on the processing

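There were 88 values recomputed under 15 settings. Of these, 66 moved by less than the counting interval of the value or, for counts, by less than 1.5 times. The other 22 moved further. Some of the 66 could not move, so the tally is not a measure of robustness. The medians of H1, the 23-gene block and Hist2 were 0 because most or all of their genes had no listed region, and their settings could add none. Leaving out testis histones or the long stretches removes genes without a region, so counts of members with a region could not change. Ratios below divide the median promoter reads by that of all protein-coding genes with a promoter region, with genes without a region at 0. For all 67 genes the ratio was 0.4627; it was 0.9254 with 2 kb windows, 0.9091 per kilobase of region, 1.493 without the genes that have no region, 0.7313 without the testis histones, 1.403 without the genes in the long stretches and 0 without regions under 80% unique words. Reads in promoter regions, 2593, were 2429 with windows of 500 bases and 1433 without regions under 80%.

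By type, per kilobase the H2A ratio was 0.2045 (from 0.06716) and the H3 ratio 0.7247 (from 0.403); with reads shared equally among the genes of a region the H2B ratio was 0.4619 (from 0.6343). Without regions under 80% the ratios were 0 for H2A, 0 for H2B, 0.1045 for H3, 0.9254 for H4 (from 1.388) and 0.1343 for the 31-gene block (from 1.149). With the region over the start site alone they were 0.1061 for H3 and 1.106 for H4. The Hist3 ratio (0.9254) was 0.6418 per kilobase and 0.6271 with shared reads. Regions shared by members had 1.034 times the median reads of the others, 1.554 times without regions under 10 reads and 5.381 times when shared meant under both start sites of a pair. In the last setting the others include the regions that hold no member start site, which carry 285 reads in all. Against the 26 regions over 1 start site alone, the medians were 113 and 60 reads. The settings with start-site regions alone and without the long stretches were chosen after seeing the data. Where a setting leaves out regions or genes, fewer of them enter by construction; otherwise the cause was not tested.

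Leaving out a lane was not run, because the tables hold 1 value for all lanes. No paired analysis was possible because there is 1 group. Depth limits the low regions: 2 reads allow 0.242 to 7.22.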
